A study of Mus musculus with 8 samples.

Results

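The genes described here are the nuclear-encoded subunits of the oxidative phosphorylation machinery, measured as nuclear RNA in mouse embryonic stem (ES) cells that had lost Mettl14 or Mettl3. They were taken by name: every protein-coding gene whose symbol begins with Ndufa, Ndufb, Ndufc, Ndufs, Ndufv, Uqcr, Sdha to Sdhd, Cox4i, Cox5 to Cox8 or Atp5. This gave 98 of the 54446 genes listed, under 97 symbols, because Atp5o is listed under a second identifier with 0 counts in all 8 libraries. The names caught 7 core and 29 accessory subunits of complex I, 4 of complex II, 8 of complex III, 20 of complex IV, 18 of complex V and 12 assembly factors (Ndufaf and Sdhaf genes), which help build complexes I and II but are no part of them. A filter on low counts kept 92 of the 98 among 21782 genes kept in all. The 6 that were not kept are the second Atp5o and the complex IV isoforms Cox4i2, Cox6a2, Cox7b2, Cox8b and Cox8c.

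The 8 libraries form 4 groups of 2: Mettl14 CKO, Mettl14 Control, Mettl3 CKO and Mettl3 Control, CKO being the label of the knockout cells. All are C57BL/6 embryonic stem cells grown in serum-containing medium with LIF, CHIR99021 (a GSK3 inhibitor) and PD0325901 (a MEK inhibitor). RNA came from the nuclear fraction and was depleted of ribosomal RNA. For the alleles, deleted exons, time after deletion and whether a line is 1 clone, no statement was found in the sources used here. METTL3 and METTL14 form the enzyme that places N6-methyladenosine on RNA, with METTL3 doing the catalysis, and the series asks how nuclear RNA changes when either is lost. Nothing in the labels ties the 2 samples of a group to separate cultures, so p-values measure only how far these samples scatter, and that scatter may be technical.

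Oxidative phosphorylation is the process by which mitochondria make most of the ATP of a respiring cell. Complexes I and II take electrons from NADH and succinate, complex III passes them to cytochrome c, and complex IV hands them to oxygen, while complexes I, III and IV move protons across the inner membrane. Complex V, the ATP synthase, lets the protons back and makes ATP. A few core subunits of complexes I, III, IV and V are encoded by mitochondrial DNA, and all the others, with the whole of complex II, by nuclear genes whose promoters often carry sites for NRF1, GABP (an ETS-family factor) and YY1.

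Promoter stretches of 4 of these genes are shown as examples, picked after their values were seen from the genes whose stretch holds the NRF1 word and that were called in Mettl14 CKO under each of 17 alternatives to the test used (Ndufa5 and Ndufs5 are others): Atp5k, Ndufb4 and Atp5h were lower in Mettl14 CKO, and Cox6a1 was higher. Each stretch is the 250 bases before the transcription start given by RefSeq on build GRCm38.p6, read 5′ to 3′ on the gene's strand. Capitals mark matches to the NRF1 word (GCGCA, any base, then GCGC) or the ETS word CCGGAAG on either strand. The Atp5k stretch is chr5:108434400-108434649 on the minus strand, and its NRF1 word begins 50 bases before the start. The Ndufb4 stretch, chr16:37654369-37654618 on the minus strand, has 3 NRF1 words, at 191, 79 and 22 bases. The Atp5h stretch, chr11:115419920-115420169 on the minus strand, has an NRF1 word at 141 bases and an ETS word at 38 bases. The Cox6a1 stretch, chr5:115348959-115349208 on the minus strand, has NRF1 words at 162 and 117 bases and an ETS word at 16 bases.
Atp5k: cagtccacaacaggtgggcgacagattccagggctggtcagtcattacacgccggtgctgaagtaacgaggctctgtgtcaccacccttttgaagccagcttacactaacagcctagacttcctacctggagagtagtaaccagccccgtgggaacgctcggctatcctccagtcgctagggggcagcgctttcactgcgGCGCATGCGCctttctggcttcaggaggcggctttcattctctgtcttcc
Ndufb4: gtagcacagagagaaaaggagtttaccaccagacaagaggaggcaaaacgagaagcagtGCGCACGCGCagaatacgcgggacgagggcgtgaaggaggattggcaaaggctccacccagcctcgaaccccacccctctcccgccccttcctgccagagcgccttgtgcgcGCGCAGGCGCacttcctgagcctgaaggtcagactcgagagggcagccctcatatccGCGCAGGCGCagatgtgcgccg
Atp5h: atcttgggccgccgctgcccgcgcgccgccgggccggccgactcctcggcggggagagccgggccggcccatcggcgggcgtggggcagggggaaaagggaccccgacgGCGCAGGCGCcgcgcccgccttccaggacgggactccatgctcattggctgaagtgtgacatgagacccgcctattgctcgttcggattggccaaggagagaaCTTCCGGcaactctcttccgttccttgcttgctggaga
Cox6a1: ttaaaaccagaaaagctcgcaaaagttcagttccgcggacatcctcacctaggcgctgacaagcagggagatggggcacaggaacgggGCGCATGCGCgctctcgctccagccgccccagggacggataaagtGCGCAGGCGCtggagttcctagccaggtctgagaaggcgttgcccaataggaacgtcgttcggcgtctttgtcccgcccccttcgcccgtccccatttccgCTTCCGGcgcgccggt

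RefSeq promoters were matched to 76 of the 92 kept genes, with 81 starts listed for them, and each was searched from 250 bases before to 50 bases after the start. The NRF1 word was in 22 of the 81 windows (27.2%), against 4.6% of all 32841 windows of that length in the table. The ETS word was in 21 (25.9%, against 8.86%), the YY1 word AAGATGGC in 10 (12.3%, against 2.75%) and the ERR word TCAAGGTCA in 2 (2.47%, against 0.423%), each searched on both strands with overlaps between words allowed. Among starts of genes lower in Mettl14 CKO, 12 of 37 had the NRF1 word and 7 the ETS word. Among starts of genes higher in Mettl14 CKO, 2 of 10 had the NRF1 word and 4 the ETS word. A match describes these letters only and is not a bound site.

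Facts of the whole series that bear on the results are few. Total counts ran from 17235889 to 20086128 per library. Levels are given as CPM, counts scaled to the library total after TMM normalization, and differences as log2 fold changes with their standard error (SE). A gene is called at an adjusted p of 0.05 in the edgeR quasi-likelihood test (Benjamini-Hochberg over all 21782 genes), and rose or fell are used only of called genes. The targeted genes checked the labels: Mettl14 had 27.8 and 30.2 CPM in Mettl14 CKO, against 58.3 and 55.0 in Mettl14 Control, and Mettl3 had 19.8 and 18.6 CPM in Mettl3 CKO, against 37.9 and 36.1 in Mettl3 Control. All 8 ES cell markers examined were detected in every group, with a summed level of 1678 to 1685 CPM in Mettl14 CKO, 2298 to 2314 in Mettl14 Control, 757 to 762 in Mettl3 CKO and 820 to 825 in Mettl3 Control. The 21 fibroblast markers summed to 6183 to 6208 CPM in Mettl14 CKO, 4206 to 4216 in Mettl14 Control, 16631 to 16817 in Mettl3 CKO and 14656 to 15088 in Mettl3 Control, with 0 of them at 0 in any group. The 11 primitive endoderm markers summed to 1761 to 1795, 1139 to 1144, 2707 to 2726 and 2485 to 2520 CPM in the same order of groups, also with 0 at 0. These are bulk samples, so fewer cells of a type and less RNA per cell cannot be told apart.

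In Mettl14 CKO, RNAs of the oxidative phosphorylation genes were mostly lower than in Mettl14 Control. Of the 92 tested, 45 fell and 9 rose, with a median log2 fold change of -0.17. Over all tested genes 22.4% were called lower and 18.0% higher, with a median of 0.03, whereas 48.9% of the oxidative phosphorylation genes were lower and 9.78% higher. These genes are abundant, and abundant protein-coding genes fell more often than others. Among the 9509 whose mean log2 CPM reached 3, 41.5% were lower and 25.4% higher (median -0.08), against 51.2% lower and 10.7% higher (median -0.15) of the 84 oxidative phosphorylation genes above that level. With the change tested against 1.2-fold, 24 were lower and 4 higher, where all tested genes had 11.6% lower and 10.1% higher. Upper-quartile scaling gave 37 lower and 14 higher.

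**Figure D1:**
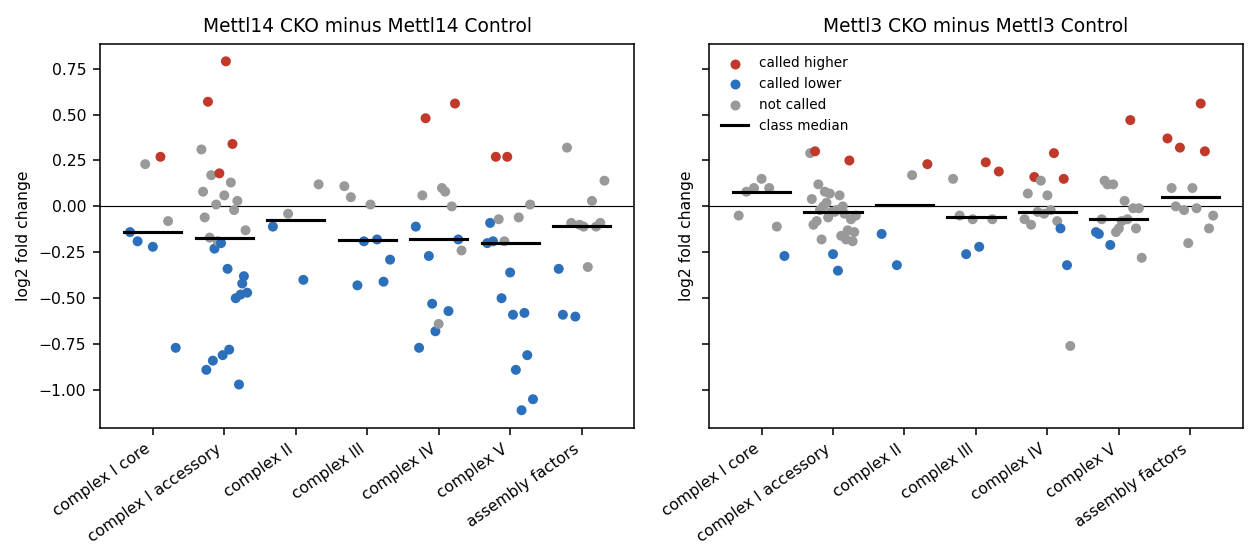
Log2 fold change (vertical axis) of each of the 92 tested genes by class (horizontal axis), in Mettl14 CKO minus Mettl14 Control (left) and Mettl3 CKO minus Mettl3 Control (right); points are genes, coloured by call, and black lines are class medians. In Mettl14 CKO points run from -1.11 to 0.79 with medians of all 7 classes below 0, while in Mettl3 CKO most points lie close to 0.

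Summed over all 98 genes, the level was 6291 and 6348 CPM in Mettl14 CKO, against 7413 and 7401 CPM in Mettl14 Control. In the other line it was 4094 and 4066 CPM in Mettl3 CKO, against 4284 and 4158 CPM in Mettl3 Control. Both libraries of each CKO group thus lay below both of their Control group. The gap between the 2 lines was wider than that between either CKO group and its Control group. Complex V made up the largest share of the summed level in all 4 groups, with 2279 and 2291 CPM in Mettl14 CKO, against 2773 and 2799 CPM in Mettl14 Control.

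**Figure D2:**
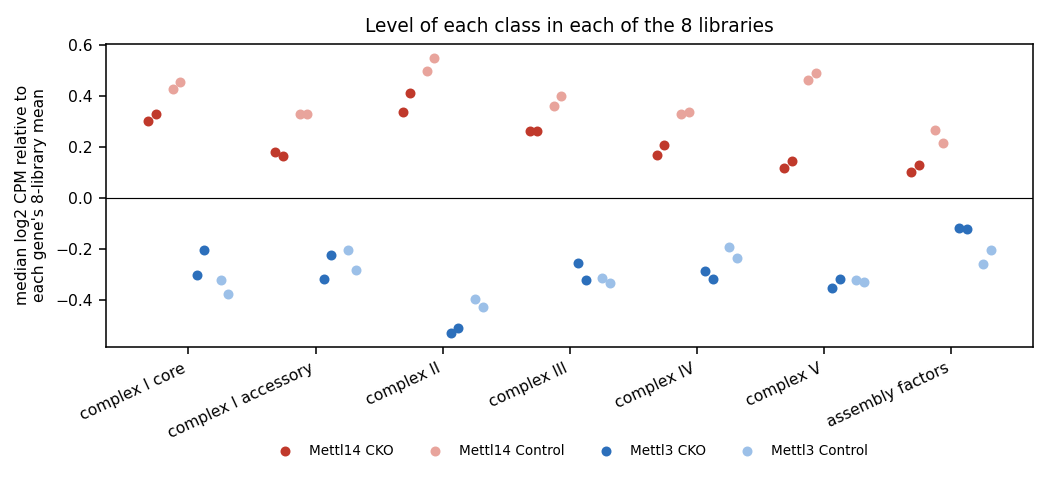
Median over the genes of each class (horizontal axis) of log2 CPM relative to each gene's mean over 8 libraries (vertical axis); each point is 1 library, coloured by group. The 2 libraries of a group lie close together, all Mettl14 CKO points lie below the Mettl14 Control points of their class, and the 4 libraries of the Mettl14 line lie above 0 in every class.

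Levels per kilobase of exon put the catalytic core of complex V and the regulatory subunit of complex IV on top in the Mettl14 line. Atp5a1, the alpha subunit of the ATP synthase, had 213 CPM per kilobase in Mettl14 CKO and 245 in Mettl14 Control. Cox4i1, the ubiquitous isoform of complex IV subunit 4, had 176 and 190, and Atp5b, the beta subunit that carries the catalytic sites, 170 and 181. The order differed in the Mettl3 line, where small complex IV subunits led. Cox6a1 had 170 CPM per kilobase in Mettl3 CKO and 153 in Mettl3 Control, Cox8a 150 and 135, and Cox4i1 115 and 121.

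Complex I is built on 7 nuclear-encoded core subunits that carry its flavin and iron-sulfur clusters. In Mettl14 CKO 4 of the 7 fell and 1 rose (Ndufs8), or 57.1% and 14.3%, with a class median of -0.14. Counts per class are to be read against abundant protein-coding genes, of which 41.5% fell and 25.4% rose. Ndufv2, an iron-sulfur subunit of the NADH-oxidising tip, had 66.4 and 69.0 CPM in Mettl14 CKO, against 118 and 113 CPM in Mettl14 Control. The groups did not overlap, and it fell by 0.77 ± 0.05 on the log2 scale (SE, edgeR adjusted p = 1.22e-29), to 0.588 of its Control level. Its partner in the tip, Ndufv1, which binds NADH, had 92.3 and 94.2 CPM in Mettl14 CKO and 97.9 and 99.2 CPM in Mettl14 Control and was not called (log2 fold change -0.08 ± 0.05, adjusted p = 0.167). Whether the changes of the pair differ was not tested. Ndufs1, the largest iron-sulfur subunit, fell by 0.14 ± 0.04, but was not called on leaving out Mettl14 Control replicate 2 (adjusted p = 0.0896). Ndufs8, another iron-sulfur subunit, rose by 0.27 ± 0.09, and that call was lost without Mettl14 CKO replicate 1 (adjusted p = 0.0957) and without Mettl14 Control replicate 2 (0.0748).

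The 29 accessory subunits of complex I, which surround the core and stabilise it, moved in both directions. In Mettl14 CKO 13 fell and 4 rose, with changes from -0.97 to 0.79 and a median of -0.17. The 44.8% that fell is near the 41.5% of abundant protein-coding genes, and 13.8% rose, against 25.4%. Ndufc1, a small subunit of the membrane arm, had 17.4 and 19.0 CPM in Mettl14 CKO, against 34.7 and 36.4 CPM in Mettl14 Control. It fell by 0.97 ± 0.09 (SE, adjusted p = 1.67e-19). Ndufa12, which sits at the root of the peripheral arm, had 12.3 and 12.9 CPM in Mettl14 CKO and 23.1 and 23.7 in Mettl14 Control, a fall of 0.89 ± 0.10. Ndufa5, Ndufb10 and Ndufb4 fell by 0.84, 0.81 and 0.78. Ndufb4, whose promoter stretch is printed above, had 33.3 and 33.7 CPM in Mettl14 CKO, against 62.5 and 52.5 in Mettl14 Control.

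A few accessory subunits rose instead. Ndufb2, a membrane-arm subunit, had 10.7 and 10.1 CPM in Mettl14 CKO, against 5.82 and 6.21 CPM in Mettl14 Control, and rose by 0.79 ± 0.14 (SE, adjusted p = 1.15e-06). Its gene overlaps Braf on the opposite strand, and since the strand setting of the counting is not given, reads of the 2 genes cannot be told apart there. Ndufa13, also known as GRIM-19, had 76.5 and 76.0 CPM in Mettl14 CKO, against 50.4 and 52.4 CPM in Mettl14 Control, and rose by 0.57 ± 0.06 (adjusted p = 4.39e-17). It overlaps Yjefn3 on the same strand, so reads shared between them cannot be told apart either. Ndufb6 rose by 0.34 ± 0.10 and Ndufa9, which lies at the junction of the arms, by 0.18 ± 0.06. Ndufb6 did not keep its call under all 17 alternatives to the test used. The call of Ndufa9 did not hold when Mettl14 CKO replicate 2 (adjusted p = 0.0924) or Mettl14 Control replicate 2 (0.607) was left out.

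Complex II, succinate dehydrogenase, changed little in size. Sdha, its flavoprotein and a citric acid cycle enzyme, had 330.0 and 343 CPM in Mettl14 CKO, against 359 and 367 CPM in Mettl14 Control, a fall of 0.11 ± 0.03 (SE, adjusted p = 0.00138). That call was lost without Mettl14 CKO replicate 1 (0.144) and without Mettl14 Control replicate 2 (0.0511). Sdhc, a membrane anchor, fell by 0.40 ± 0.09. The other anchor, Sdhd, had 65.6 and 62.5 CPM in Mettl14 CKO and 59.8 and 57.8 in Mettl14 Control, and Sdhb, the iron-sulfur subunit, 32.4 and 34.7 CPM and 34.6 and 34.3 CPM. Neither was called (log2 fold changes 0.12 and -0.04).

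Complex III, the cytochrome bc1 complex, had 5 of its 8 genes (62.5%) lower and 0 higher in Mettl14 CKO (median -0.19). Uqcrb, which helps bind quinone, had 111 and 109 CPM in Mettl14 CKO, against 148 CPM in both libraries of Mettl14 Control, and fell by 0.43 ± 0.04 (SE, adjusted p = 1.47e-16). Uqcrh, the hinge protein, fell by 0.41 ± 0.05 and Uqcrq by 0.29 ± 0.05. Uqcrc1, a core scaffold protein, had 162 and 167 CPM in Mettl14 CKO and 189 and 187 CPM in Mettl14 Control, a fall of 0.19 ± 0.04. The Rieske iron-sulfur protein Uqcrfs1 fell by 0.18 ± 0.07, not called when Mettl14 CKO replicate 2 (adjusted p = 0.322) or Mettl14 Control replicate 2 (0.265) was left out. Uqcrc2, Uqcr10 and Uqcr11 were not called. The cytochrome c1 gene Cyc1, which the name rule does not catch, rose by 0.22 ± 0.06.

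In complex IV, cytochrome c oxidase, the largest called changes were falls. Of 15 genes tested 7 fell and 2 rose in Mettl14 CKO (median -0.18). The 46.7% that fell is near the 41.5% of abundant protein-coding genes, and 13.3% rose, against 25.4%. Cox5a, a subunit on the matrix side, had 24.0 and 22.2 CPM in Mettl14 CKO, against 40.4 and 38.0 CPM in Mettl14 Control, and fell by 0.77 ± 0.08 (SE, adjusted p = 6.04e-17). Cox6c, a membrane subunit, had 229 and 238 CPM in Mettl14 CKO, against 368 and 380.0 CPM in Mettl14 Control, a fall of 0.68 ± 0.03 (adjusted p = 4.29e-32). Cox7b had 142 and 144 CPM in Mettl14 CKO and 213 and 212 CPM in Mettl14 Control, a fall of 0.57 ± 0.04. In each of these the CKO libraries lay far below both Control libraries.

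Cox8a and Cox6a1, ubiquitous isoforms of small complex IV subunits, were the exceptions. Cox8a had 72.9 and 72.0 CPM in Mettl14 CKO, against 47.4 and 50.8 CPM in Mettl14 Control, and rose by 0.56 ± 0.05 (SE, adjusted p = 9.13e-18). Cox6a1 had 79.2 and 78.4 CPM in Mettl14 CKO, against 57.5 and 55.2 CPM in Mettl14 Control, and rose by 0.48 ± 0.05 (adjusted p = 3.84e-16). Cox4i1 fell by 0.11 ± 0.03, and that call was lost without Mettl14 CKO replicate 1 (adjusted p = 0.197) and without Mettl14 Control replicate 1 (0.191). Ndufa4, once counted with complex I and now with complex IV, fell by 0.18 ± 0.06, but was not called on leaving out either Mettl14 CKO library (adjusted p = 0.0775 and 0.116) or Mettl14 Control replicate 1 (0.406). Cox5b, Cox7a2, Cox7a2l and Cox7c were not called, with log2 fold changes from 0.00 to 0.10.

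Isoforms known from other tissues or conditions were low or at the limit of counting. Cox4i2, an isoform linked to low oxygen, had 9 and 7 counts in Mettl14 CKO, 10 and 15 in Mettl14 Control, 3 and 4 in Mettl3 CKO and 7 and 4 in Mettl3 Control. Cox6a2 and Cox8b, isoforms of heart and skeletal muscle, had 0 to 2 and 0 to 3 counts, and the testis isoforms Cox7b2 and Cox8c 0 to 8 and 0 to 1 counts. Ndufa4l2, a hypoxia-linked relative of Ndufa4, passed the filter with 3 to 15 counts and was not called in either knockout. The muscle isoform Cox7a1 had 32 and 33 counts in Mettl14 CKO, against 39 and 47 in Mettl14 Control, and the testis isoform Cox6b2 had 91 to 102 counts, against 109 to 127. Cox6b2 fell by 0.53 ± 0.17 (SE, adjusted p = 0.00569), but was not called when Mettl14 CKO replicate 2 (0.128) or Mettl14 Control replicate 1 (0.14) was left out. For the isoforms with a few counts no change was detectable at this depth.

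Of 17 ATP synthase genes tested, 11 fell and 2 rose in Mettl14 CKO (64.7% and 11.8%), with a median of -0.20. The catalytic head changed little: Atp5a1 had 666 and 671 CPM in Mettl14 CKO, against 766 and 771 CPM in Mettl14 Control, and fell by 0.20 ± 0.03 (SE, adjusted p = 7.8e-12), and Atp5b fell by 0.09 ± 0.03. The call of Atp5b was lost with upper-quartile scaling (adjusted p = 0.136) and on leaving out Mettl14 CKO replicate 1 (0.0507) or Mettl14 Control replicate 2 (0.0585). Atp5c1, the rotating gamma subunit, fell by 0.19 ± 0.04. Atp5d, the delta subunit of the central stalk, rose by 0.27 ± 0.09, but was not called on leaving out Mettl14 CKO replicate 2 (0.101) or Mettl14 Control replicate 1 (0.0741).

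The peripheral stalk, which holds the head still, and the membrane part are made of small subunits, and some of their genes fell by larger amounts. Atp5k, the membrane subunit e, had 16.0 and 13.8 CPM in Mettl14 CKO, against 31.6 and 32.6 CPM in Mettl14 Control, and fell by 1.11 ± 0.10 (SE, adjusted p = 2.56e-20), to 0.464 of its Control level. Atp5j, coupling factor 6 of the peripheral stalk, had 87.3 and 78.3 CPM in Mettl14 CKO, against 155 and 150.0 CPM in Mettl14 Control, a fall of 0.89 ± 0.04 (adjusted p = 2.12e-38). Atp5mpl, a small proteolipid of the membrane part, had 86.5 and 90.9 CPM in Mettl14 CKO, against 158 and 153 CPM in Mettl14 Control, a fall of 0.81 ± 0.04. The gene of Atp5j overlaps Gabpa on the opposite strand, and Gabpa itself fell by 0.51 ± 0.03 in the same libraries, so reads shared between them cannot be told apart.

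The other stalk and membrane subunits varied, and no difference between them and the head was tested. Atp5h, subunit d of the peripheral stalk, had 97.9 and 99.9 CPM in Mettl14 CKO, against 149 and 148 CPM in Mettl14 Control, a fall of 0.59 ± 0.05. Atp5l, the membrane subunit g, fell by 0.58 ± 0.06, and Atp5f1, subunit b, by 0.50 ± 0.03. Atp5o, which joins the stalk to the head, had 22.5 and 21.5 CPM in Mettl14 CKO and 21.2 and 22.4 CPM in Mettl14 Control, and was not called (0.01 ± 0.09). Atp5j2, the membrane subunit f, was not called either (-0.06 ± 0.06). Atp5s, named as a coupling factor, had only 35 and 43 counts in Mettl14 CKO, against 71 and 66 in Mettl14 Control, and fell by 1.05 ± 0.23.

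The 3 genes that encode the same c subunit of the proton-driven ring did not move together. Atp5g3 had 34.5 and 33.3 CPM in Mettl14 CKO, against 44.8 and 42.4 CPM in Mettl14 Control, and fell by 0.36 ± 0.07 (SE, adjusted p = 2.27e-06). Atp5g1 had 10.2 and 11.0 CPM in Mettl14 CKO and 12.0 and 12.2 CPM in Mettl14 Control and was not called (-0.19 ± 0.12). Atp5g2 had 16.4 and 17.8 CPM in Mettl14 CKO and 12.4 and 16.0 CPM in Mettl14 Control and rose by 0.27 ± 0.11 (adjusted p = 0.0376), a call lost with RLE scaling (0.0672) and on leaving out Mettl14 CKO replicate 2 (0.27) or Mettl14 Control replicate 1 (0.633). Whether their changes differ from each other was not tested.

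**Figure D3:**
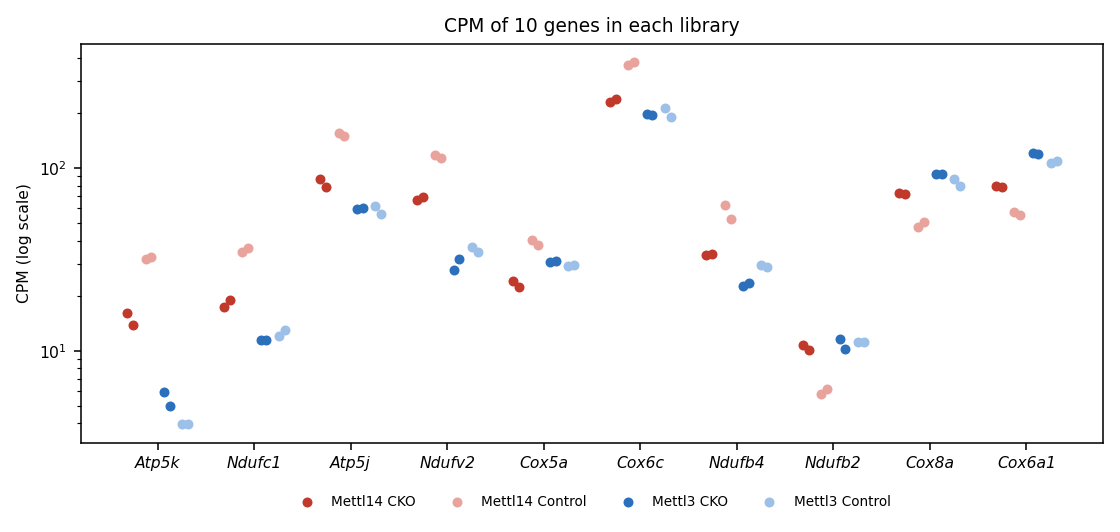
CPM on a log axis (vertical) of 10 genes (horizontal axis) in each library, coloured by group. For Atp5k, Ndufc1, Atp5j, Ndufv2, Cox5a, Cox6c and Ndufb4 the Mettl14 CKO libraries lie below the Mettl14 Control libraries, for Ndufb2, Cox8a and Cox6a1 above them, and Atp5k is farthest apart between the Mettl14 and Mettl3 lines.

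Of the 12 assembly factors caught by the names, 3 fell and 0 rose in Mettl14 CKO (median -0.10). Their share of falls lies below the 41.5% of abundant protein-coding genes and near the 22.4% of all tested genes. Nothing is read from these falls. Of abundant protein-coding genes 25.4% rose, and of all tested genes 18.0%. Ndufaf5, a hydroxylase that modifies a core subunit of complex I, had 8.87 and 10.2 CPM in Mettl14 CKO, against 14.8 and 14.2 CPM in Mettl14 Control, and fell by 0.60 ± 0.12 (SE, adjusted p = 1.52e-05). Ndufaf2, which occupies the place of Ndufa12 during assembly, fell by 0.59 ± 0.08. Ndufaf1 fell by 0.34 ± 0.12, a call lost without Mettl14 CKO replicate 1 (0.155) and without Mettl14 Control replicate 2 (0.171). The 4 Sdhaf genes, which serve complex II, were not called.

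Most of the larger calls did not rest on 1 library. Of the 45 genes called lower in Mettl14 CKO, 33 were called lower under each of the 17 alternatives to the test used (other scalings, filters, tools, fits and a base-composition correction, and each library left out, but not the test against 1.2-fold). These 33 include Atp5k, Atp5j, Atp5mpl, Atp5h, Atp5f1, Atp5a1, Ndufc1, Ndufa12, Ndufv2, Cox5a, Cox6c, Cox7b, Uqcrb, Uqcrc1 and Sdhc. Of the 9 called higher, 4 were called higher under each of the 17: Cox6a1, Cox8a, Ndufa13 and Ndufb2.

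In Mettl3 CKO the same genes changed by small amounts in both directions. Of the 92, 13 rose and 12 fell against Mettl3 Control, with a median of -0.03. Over all tested genes 15.1% were called higher and 5.78% lower, with a median of 0.03, against 14.1% higher among the oxidative phosphorylation genes. Among abundant protein-coding genes 30.7% were higher and 7.05% lower (median 0.09), against 15.5% higher and 14.3% lower (median -0.03) of the 84 oxidative phosphorylation genes above the same level. None passed the test against 1.2-fold (0 higher and 0 lower, where all tested genes had 1.21% and 0.51%). The balance of directions depends on the scaling: upper-quartile scaling moved the median of all genes by -0.11 and gave 1 higher and 32 lower, and leaving out the low-count filter moved it by 0.11 and gave 21 higher and 2 lower. The median of the oxidative phosphorylation genes shifted by the same -0.11 and 0.11, so their place relative to all genes stayed. DESeq2 called 0 higher and 9 lower.

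Among the genes that fell in Mettl3 CKO, 1 was called under all 17 alternatives: Ndufb4, with 22.6 and 23.4 CPM in Mettl3 CKO, against 29.6 and 28.8 CPM in Mettl3 Control. It fell by 0.35 ± 0.08 (SE, adjusted p = 0.000217). Atp5b had 391 and 383 CPM in Mettl3 CKO, against 440.0 and 418 CPM in Mettl3 Control, and fell by 0.15 ± 0.03 (adjusted p = 2.48e-06). Uqcrb fell by 0.26 ± 0.05 and Atp5a1 by 0.14 ± 0.03, each with both CKO libraries below both Control libraries. The call of Uqcrb was lost without Mettl3 Control replicate 1 (adjusted p = 0.0725). Sdhb fell by 0.32 ± 0.09 and Ndufa4 by 0.32 ± 0.08, and Ndufv2 and Atp5f1 by 0.27 and 0.21. Without the low-count filter Atp5b, Atp5a1, Atp5f1, Sdhb, Ndufv2 and Ndufa4 were not called (adjusted p = 0.474, 0.646, 0.121, 0.073, 0.088 and 0.0506), and the call of Ndufa4 was also lost without Mettl3 Control replicate 2 (0.0965) and without Mettl3 CKO replicate 1 (0.0584), as was that of Ndufv2 without Mettl3 CKO replicate 1 (0.127).

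The genes that rose in Mettl3 CKO included 4 of the 12 assembly factors. That share, 33.3%, is near the 30.7% of abundant protein-coding genes that rose there. Sdhaf1, which helps insert the iron-sulfur clusters of Sdhb, had 10.5 and 8.9 CPM in Mettl3 CKO, against 6.54 and 6.63 CPM in Mettl3 Control, and rose by 0.56 ± 0.14 (SE, adjusted p = 0.00103). Ndufaf1, Ndufaf4 and Sdhaf2 rose by 0.37, 0.32 and 0.30. Atp5k had 5.95 and 5.01 CPM in Mettl3 CKO, against 3.98 and 3.95 CPM in Mettl3 Control, and rose by 0.47 ± 0.16 (adjusted p = 0.0276). Cox7a2l rose by 0.29 ± 0.09, Uqcrfs1 by 0.24 ± 0.07 and Sdhd by 0.23 ± 0.08. None of the 13 was called under all 17 alternatives, and 2 of the 13 were called whichever library was left out. The call of Sdhaf1 was lost with DESeq2 (adjusted p = 0.0594) and without Mettl3 CKO replicate 1 (0.0668), that of Atp5k without either Mettl3 Control library (0.0943 and 0.1) or Mettl3 CKO replicate 1 (0.274), and that of Ndufa12, which rose by 0.30 ± 0.11, without any 1 of 7 libraries. Without Mettl3 CKO replicate 1, Cox7a2l (0.0851), Uqcrfs1 (0.0698), Sdhd (0.122) and Ndufaf1 (0.125) were not called, and without Mettl3 Control replicate 1, Uqcrfs1 (0.0654), Sdhd (0.0837) and Ndufaf1 (0.336) were not. Without Mettl3 Control replicate 2, Cox7a2l (0.106) and Sdhd (0.0596) were not called, nor was Cox7a2l without Mettl3 CKO replicate 2 (0.0532).

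The 2 knockouts were then set side by side, and the difference between their changes was tested in the same fit. Of the 92 genes, the Mettl14 change was lower than the Mettl3 change for 37 and higher for 11, with a median difference of -0.19. Over all tested genes 20.5% were called lower and 12.7% higher in this comparison, against 40.2% and 12.0% of the oxidative phosphorylation genes. Among abundant protein-coding genes the shares were 41.4% and 14.5%, close to the 41.7% and 13.1% of the 84 oxidative phosphorylation genes above the same level. Upper-quartile scaling, which moved the median of all genes by 0.16, gave 23 lower and 26 higher. Tested against 1.2-fold, 19 were lower and 3 higher, where all tested genes had 11.0% and 7.03%. Of the 37 genes, 23 were called lower under each of 16 alternatives, and of the 11, 4 were called higher: Cox6a1, Cox8a, Ndufa13 and Ndufb2.

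Calls in the 2 knockouts overlapped in part. Of the 45 genes lower in Mettl14 CKO, 8 (Atp5a1, Atp5b, Atp5f1, Ndufa4, Ndufb4, Ndufv2, Sdha and Uqcrb) were among the 12 lower in Mettl3 CKO, and 6 (Atp5k, Ndufa12, Ndufaf1, Ndufc2, Uqcrfs1 and Uqcrq) were among the 13 higher there. Of the 9 genes higher in Mettl14 CKO, 2 (Cox6a1 and Cox8a) were higher in Mettl3 CKO and 0 were lower. Of all 92, 48.9% were lower in Mettl14 CKO, so nothing is read from the size of these overlaps. A further 29 genes were called in neither. Across the 92 genes the log2 fold changes of the knockouts, which share no library, correlated at Pearson r = 0.09 and Spearman rho = 0.12, as a description over genes that share library depth and scaling.

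**Figure D4:**
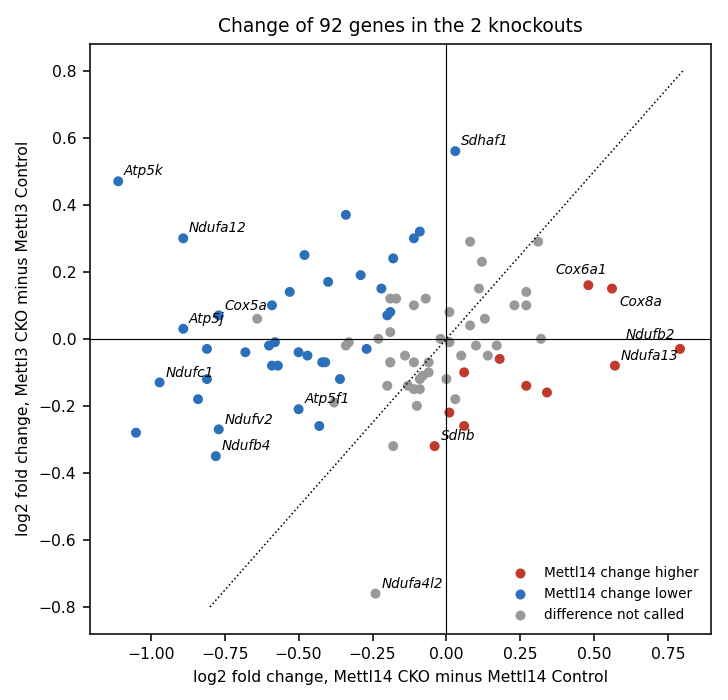
Log2 fold change in Mettl14 CKO minus Mettl14 Control (horizontal axis) and in Mettl3 CKO minus Mettl3 Control (vertical axis) of the 92 tested genes; points are coloured by the call of the difference between the 2 changes, and the dotted line marks equal change. The horizontal spread, from -1.11 to 0.79, is wider than the vertical spread, from -0.76 to 0.56, and Atp5k lies at -1.11 and 0.47.

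The widest differences were those of genes that fell in 1 knockout and rose in the other. For Atp5k the Mettl14 change was lower than the Mettl3 change by 1.57 on the log2 scale (-1.57 ± 0.19, SE, adjusted p = 1.95e-12), and for Ndufa12 by 1.19 (-1.19 ± 0.15, adjusted p = 2.98e-11). Atp5j (-0.91 ± 0.07), Cox5a (-0.84 ± 0.11), Ndufc1 (-0.84 ± 0.14), Atp5mpl (-0.69 ± 0.07) and Cox6c (-0.64 ± 0.05) also differed. These last 5 genes were not called in Mettl3 CKO. At the other end, Ndufb2 had 11.6 and 10.2 CPM in Mettl3 CKO, against 11.2 and 11.1 CPM in Mettl3 Control, so that its rise was seen in the Mettl14 line, with a difference of 0.82 ± 0.19 (adjusted p = 0.000163). For Atp5a1, Atp5b and Sdha, which fell in both, the difference was not called (-0.06, 0.06 and 0.04).

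The Control cells of the 2 lines were compared as well, and here calls were most numerous. Of the 92 genes, 74 were higher in Mettl14 Control than in Mettl3 Control and 5 lower, with a median of 0.66. Over all tested genes 33.6% were called higher and 34.1% lower, with a median of -0.09, and among abundant protein-coding genes 58.3% and 26.1%, with a median of 0.30, against 84.5% and 5.95% of the 84 oxidative phosphorylation genes above the same level. All 8 complex III genes and all 4 complex II genes were higher in Mettl14 Control. Upper-quartile scaling moved the median of all genes by -0.22 and gave 55 higher and 8 lower. Tested against 1.2-fold, 57 were higher and 4 lower, where all tested genes had 27.3% and 28.7%. In all, 55 of the 74 were called higher under each of the 17 alternatives.

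Atp5k was at 31.6 and 32.6 CPM in Mettl14 Control, against 3.98 and 3.95 CPM in Mettl3 Control, which is 8.08 times as high (log2 fold change 3.01 ± 0.12, SE, adjusted p = 2.27e-50). Atp5f1 had 278 and 280.0 CPM in Mettl14 Control, against 83.1 and 83.6 CPM in Mettl3 Control (1.74 ± 0.04), and Ndufv2 118 and 113 CPM, against 36.9 and 34.6 CPM (1.69 ± 0.05). The 5 genes lower in Mettl14 Control were Cox6a1 (-0.93), Ndufb2 (-0.89), Cox8a (-0.77), Atp5d (-0.43) and Ndufs3 (-0.35). The call of Ndufs3 was lost without Mettl3 Control replicate 2 (adjusted p = 0.114), and that of Atp5d with a base-composition correction (0.857). Cox6a1 had 57.5 and 55.2 CPM in Mettl14 Control, against 106 and 109 CPM in Mettl3 Control. The change in Mettl14 CKO and this comparison share the Mettl14 Control libraries, so their values are set side by side and not compared.

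Electron carriers and helpers of the respiratory chain outside the name rule were also counted. Their counts, and those of the lists after them, are to be read against the abundant protein-coding genes, of which 41.5% fell and 25.4% rose in Mettl14 CKO, and 7.05% fell and 30.7% rose in Mettl3 CKO. Shares of falls in Mettl14 CKO were below 41.5% for the outside assembly factors (33.3%), coenzyme Q genes (38.5%) and protein import (37.9%). Nothing is read from the falls of those lists. Their shares of rises in Mettl14 CKO were 2.38%, 7.69% and 6.9% in the same order, against 25.4%. Cycs, cytochrome c, had 56.6 and 51.0 CPM in Mettl14 CKO, against 67.8 and 65.2 CPM in Mettl14 Control, and fell by 0.31 ± 0.06 (SE, edgeR adjusted p = 4.47e-06). The ATP synthase inhibitor Atpif1 had 119 and 116 CPM in Mettl14 CKO, against 227 and 221 CPM in Mettl14 Control, and fell by 0.93 ± 0.04 (adjusted p = 3.65e-49). Of 42 assembly factors outside the rule, 14 fell and 1 rose in Mettl14 CKO (median -0.17), and 0 fell and 7 rose in Mettl3 CKO (median 0.07). Uqcc2, an assembly factor of complex III, fell by 1.02 ± 0.08, and Sco2, a copper chaperone of complex IV, rose by 1.29 ± 0.28, in Mettl14 CKO. Of 13 genes of coenzyme Q synthesis, 5 fell and 1 rose. Of 18 citric acid cycle genes, 11 fell and 2 rose, including Sucla2, a subunit of succinyl-CoA synthetase (-0.73). Of 8 carriers and channels tested, 7 fell and 0 rose, led by the ADP/ATP carrier Slc25a4 (-0.67). Of 29 genes for protein import into mitochondria, 11 fell and 2 rose in Mettl14 CKO (median -0.11), led by the chaperone Hspa9 (-0.70), and 0 fell and 7 rose in Mettl3 CKO (median 0.08).

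Regulators known to act on these promoters fell or were not called in Mettl14 CKO. Nrf1 had 106 and 110.0 CPM in Mettl14 CKO and 113 CPM in both libraries of Mettl14 Control and was not called (-0.07 ± 0.04). Gabpa, the DNA-binding subunit of GABP, fell by 0.51 ± 0.03 (SE, adjusted p = 2.28e-29). Its partner Gabpb1 fell by 0.63 ± 0.08, Yy1 by 0.52 ± 0.05, the coactivator Pprc1 by 0.46 ± 0.04 and the ES cell nuclear receptor Esrrb by 0.34 ± 0.03. In all, 7 of 16 regulators tested fell (43.8%) and 0 rose in Mettl14 CKO. Of abundant protein-coding genes 41.5% fell and 25.4% rose there. In Mettl3 CKO 2 regulators fell (12.5%) and 5 rose (31.2%), against 7.05% and 30.7% of abundant protein-coding genes. Of 15 genes for copying and transcribing mitochondrial DNA, 8 fell and 2 rose in Mettl14 CKO, among them the packaging factor Tfam (-0.53 ± 0.06) and the mitochondrial RNA polymerase Polrmt (0.48).

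Other RNA classes were counted in the same libraries. Of 77 genes for mitochondrial ribosomal proteins, 36 fell and 6 rose in Mettl14 CKO (median -0.21), and 1 fell and 13 rose in Mettl3 CKO (median 0.09). In Mettl14 CKO 46.8% were lower, near the 41.5% of abundant protein-coding genes, and 7.79% were higher, against 25.4%. Of 84 genes for cytosolic ribosomal proteins, 67 fell and 2 rose in Mettl14 CKO (median -0.35), and their summed level was 25718 to 25858 CPM in Mettl14 CKO, against 36011 to 36201 CPM in Mettl14 Control. The 13 mRNAs of the mitochondrial genome, which are made outside the nucleus, summed to 6630 to 6651 CPM in Mettl14 CKO, against 10215 to 10324 CPM in Mettl14 Control, and to 6905 to 7422 CPM in Mettl3 CKO, against 5200 to 5493 CPM in Mettl3 Control, with 1 of the 13 at 0 in each CKO group and 0 in the Control groups. Of the 10 tested, 6 fell and 1 rose in Mettl14 CKO, and 0 fell and 6 rose in Mettl3 CKO. Of 18 nuclear long noncoding RNAs, 5 fell and 11 rose in Mettl14 CKO (median 0.32), and 3 fell and 8 rose in Mettl3 CKO (median 0.12). Malat1, 1 of them, was at 29767 and 29235 CPM in Mettl14 CKO, against 21513 and 21662 CPM in Mettl14 Control.

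**Figure D5:**
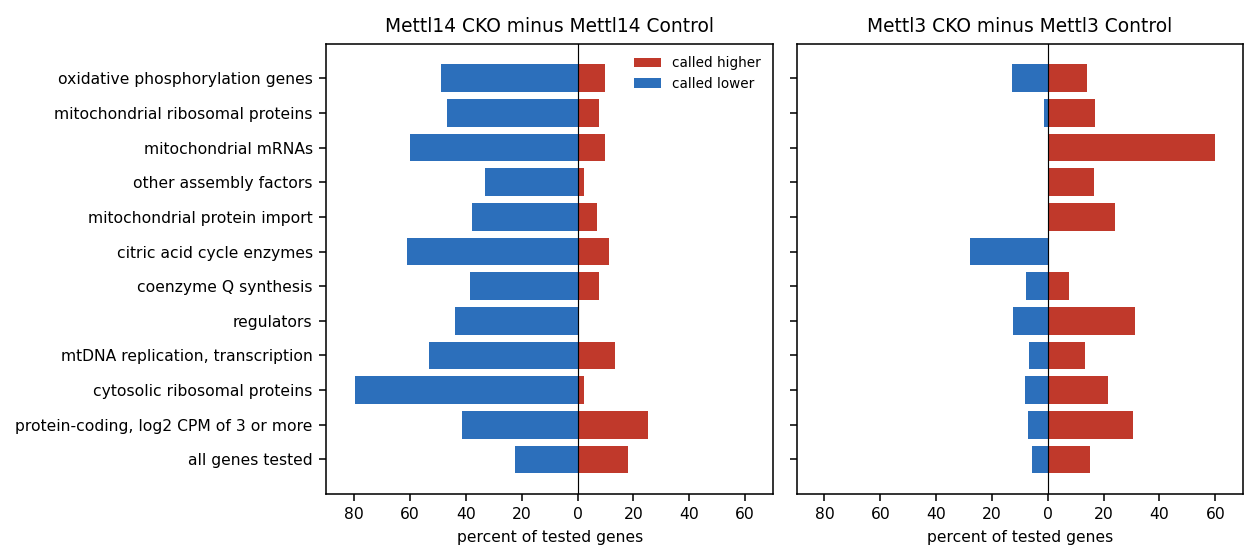
Share of tested genes called higher (red, to the right) and lower (blue, to the left), in percent, by gene list, for Mettl14 CKO minus Mettl14 Control (left) and Mettl3 CKO minus Mettl3 Control (right). In Mettl14 CKO the blue bars are 48.9% for oxidative phosphorylation genes, 46.8% for mitochondrial ribosomal proteins and 79.8% for cytosolic ribosomal proteins. All genes tested have 22.4%, and abundant protein-coding genes have 41.5%, close to the first 2. The red bars are 9.78%, 7.79% and 2.38% in the same order, against 18.0% for all genes tested and 25.4% for abundant protein-coding genes.

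Cell type markers were also called in each comparison, and their relation to the oxidative phosphorylation genes was not tested. In Mettl14 CKO 7 of 8 ES cell markers fell and 1 rose, Sox2 by -1.95 ± 0.06, while 15 of 20 fibroblast markers tested rose and 0 fell, and 3 of 10 primitive endoderm markers rose and 0 fell. In Mettl3 CKO 4 ES cell markers fell and 1 rose, 9 fibroblast markers rose and 2 fell, and 3 primitive endoderm markers rose and 1 fell. Between the Control groups, 7 ES cell markers were higher and 1 lower in Mettl14 Control, and 1 fibroblast marker was higher and 18 lower. Of the primitive endoderm markers, 1 was higher and 4 were lower in Mettl14 Control. Col1a1, a fibroblast collagen gene, had 274 and 266 CPM in Mettl14 Control, against 2743 and 2670.0 CPM in Mettl3 Control. The part of cell composition, of RNA from outside the nucleus and of the scaling in the changes of the oxidative phosphorylation genes was not tested.

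Features of the genes themselves were compared as a description. Members lie on 19 chromosomes, with at most 10 on any 1. Their median exon length was 1737 bases, against 5026 bases for abundant protein-coding genes, and the median GC content of their transcripts was 50.2%, against 49.6%. Across the 92 genes the log2 fold change in Mettl14 CKO correlated with GC content at r = 0.23 (rho = 0.23) and with exon length at r = -0.04, against 0.16 and 0.06 across abundant protein-coding genes. Copies can split reads: 25 of the 98 genes have an annotated pseudogene of at least 95% identity over at least 100 bases, among them Atp5k (1), Ndufb4 (2), Cox6c (2), Uqcrb (3), Atp5h (4) and Atp5l (9), so their values are uncertain. Without such a copy 32 of 68 genes fell and 8 rose in Mettl14 CKO (median -0.12), and with one 13 of 24 fell and 1 rose (median -0.19). A further source of doubt is overlap with another expressed gene, which 27 have, 24 of them on the opposite strand. Among genes described above these include Ndufs1, Ndufs3, Ndufb2, Ndufa13, Uqcrb, Cox4i1, Cox6c, Ndufa4l2, Atp5a1, Atp5b, Atp5d, Atp5f1, Atp5j, Atp5o, Ndufaf2, Sdhaf1 and Sdhaf2. Without such an overlap 34 of 66 fell and 6 rose.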

How the data were processed

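Nuclear RNA of 8 mouse ES cell libraries was sequenced after ribosomal RNA depletion with a stranded total RNA kit, per the labels' protocols. The authors deposited whole-number counts of reads per gene under Ensembl gene identifiers. CASAVA, Trimmomatic 0.38, HISAT2 2.1.0, HTSeq and the mm10 build are named in the submitters' processing notes. What each did, which annotation release was counted, with what strand setting and how multi-mapping reads were treated was not stated in any source used.

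Of 54446 identifiers, 54409 were matched to GENCODE M21 for names and 37 were not; 0 lines named no gene and 0 sample columns were left unused. Total counts per library were 17235889 to 20086128, so a gene with few counts has a wide counting error. Genes were kept with filterByExpr at a minimum count of 10 (21782 genes). All 8 libraries were fitted together (4 group means, leaving 4 residual degrees of freedom) in edgeR 4.0.16 (R 4.3.3): TMM scaling, robust quasi-likelihood fit and test, and Benjamini-Hochberg adjustment over all kept genes at 0.05. The 4 comparisons were each CKO against its Control, the difference of these 2 changes, and Mettl14 Control against Mettl3 Control. The test was first tested on simulated data.

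The 98 genes and the other lists were chosen with earlier results of these data known. Members examined one by one were a set list of catalytic members and isoforms and, in each comparison, the called member with the highest and the lowest change per class (mean log2 CPM of at least 1) and the 3 called members with the smallest p; this gave 51, of which 46 passed the filter, and 1 is not reported here individually. Of other lists the highest and lowest called gene may be named. Other genes named in counts of 5 or fewer, or singled out for a role, were chosen after their values were seen. Atpif1 is the annotation's name for a gene that newer names would place among the Atp5 genes, so the rule does not catch it. In the list of assembly factors outside the rule and in that of nuclear noncoding RNAs, 1 entry each had no match. Between replicates of a group the chi-square per degree of freedom was 1.42 to 2.05 and r 0.994 to 0.9954. Scatter beyond counting noise does not show that the 2 libraries of a group came from separate cultures. The fit counted each library as its own sample. Promoters came from RefSeq on GRCm38.p6 and pseudogene copies from the annotation and its transcripts. Alternatives were RLE, upper-quartile and protein-coding scaling, no low-count filter, DESeq2 1.42.0, limma-voom (limma 3.58.1), only the 2 groups compared, a replicate block, the test against 1.2-fold, leaving out each library and a GC offset.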

Additional observations from a re-analysis of the deposited data

Results flagged for a closer look

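The difference between the Mettl14 change and the Mettl3 change was tested by edgeR's quasi-likelihood test in the fit of all 8 libraries, and 29 of 45 tested genes examined one by one were called at an adjusted p of 0.05, where 33.2% of all tested genes were called in either direction. Many of the 45 were examined because they had the highest, lowest or smallest-p change of a comparison, this one included, so nothing is read from that count. The values are log2 differences, Mettl14 change minus Mettl3 change.

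In complex V the difference was -1.57 for Atp5k, -0.91 for Atp5j, -0.69 for Atp5mpl, -0.29 for Atp5f1 and -0.24 for Atp5g3, and 0.41 for Atp5g2. In complex I it was -1.19 for Ndufa12, -0.84 for Ndufc1, -0.50 for Ndufv2 and -0.43 for Ndufb4, and 0.23 for Ndufa9 and 0.82 for Ndufb2. In complex II it was -0.57 for Sdhc and 0.28 for Sdhb. In complex III it was -0.49 for Uqcrq, -0.42 for Uqcrfs1, -0.34 for Uqcrh, -0.17 for Uqcrb and 0.23 for Uqcrc2.

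In complex IV it was -0.84 for Cox5a, -0.67 for Cox6b2, -0.64 for Cox6c and -0.49 for Cox7b, and 0.33 for Cox6a1 and 0.41 for Cox8a. Among assembly factors it was -0.71 for Ndufaf1, -0.69 for Ndufaf2, -0.58 for Ndufaf5 and -0.53 for Sdhaf1.

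Of the 29, 20 were called whichever library was left out and 9 were not. The difference of Uqcrb moved to -0.06 (adjusted p = 0.53) without Mettl3 Control replicate 2, that of Atp5g2 to 0.24 (0.328) without Mettl14 Control replicate 1, and that of Ndufa9 to 0.11 (0.411) without Mettl14 Control replicate 2. Sdhb, Uqcrc2, Uqcrb, Atp5g3 and Sdhaf1 each lost the call in 6 of the 8 fits without 1 library, with adjusted p of up to 0.167, 0.0875, 0.53, 0.174 and 0.169, and Ndufa9, Atp5g2, Cox6b2 and Ndufaf5 in 5, 4, 3 and 2 of them. DESeq2 called none of these 9 (adjusted p = 0.0815 to 0.246).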

How the results depend on the processing

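Counts of oxidative phosphorylation genes are given here as higher and lower, only where they moved by more than a factor of 1.5. Smaller moves are not listed. Among them, scaling from nuclear protein-coding genes gave 9 and 18 in Mettl3 CKO. DESeq2 gave 39 lower in Mettl14 CKO and 27 lower for the difference of the changes. In Mettl14 CKO (9 and 45), upper-quartile scaling gave 14 higher, DESeq2 4 higher, and the test against 1.2-fold 4 and 24. In Mettl3 CKO (13 and 12), upper-quartile scaling gave 1 and 32, no low-count filter 21 and 2, DESeq2 0 higher, only the 2 groups compared 7 higher, and the test against 1.2-fold 0 and 0; the median change turned to 0.072 with no low-count filter. For the difference of the changes (11 and 37), upper-quartile scaling gave 26 and 23, no low-count filter 5 higher, DESeq2 4 higher, and the test against 1.2-fold 3 and 19. Between the Controls (74 and 5), upper-quartile scaling gave 8 lower and a GC offset, chosen after seeing the data, 3 lower. Upper-quartile scaling also reversed the difference of Atp5a1 (0.10) and of Cox4i1 (0.12) and the Control comparison of Ndufa9 (-0.01). The cause of these moves was not tested.

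Leaving out 1 library gave 7 to 10 higher, 38 to 44 lower and medians of -0.164 to -0.129 in Mettl14 CKO. In Mettl3 CKO it gave 5 to 13 higher, 9 to 14 lower and medians of -0.067 to -0.002, with 6 higher without Mettl3 Control replicate 1, 8 without Mettl3 Control replicate 2 and 5 without Mettl3 CKO replicate 1. For the difference it gave 6 to 10 higher, 30 to 36 lower and medians of -0.189 to -0.126, with 6 higher without Mettl14 Control replicate 1, Mettl14 CKO replicate 2 or Mettl3 Control replicate 1, and 7 without Mettl14 Control replicate 2 or Mettl14 CKO replicate 1. Between the Controls it gave 67 to 74 higher, 4 to 5 lower and medians of 0.624 to 0.676.

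Deviations of samples with the same replicate number correlated at -0.0318 to 0.106. This does not show whether such samples share a culture or a batch, and the labels do not say. With the replicate block the counts were 9 and 44 in Mettl14 CKO, 13 and 12 in Mettl3 CKO, 11 and 37 for the difference and 74 and 5 between the Controls. Over the genes examined one by one, 2819 values stayed on their side of the threshold with their direction, 208 were no longer called, 52 were newly called and 3 reversed.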
